A study of Mus musculus with 43 samples.

Results

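RNA of 3 mouse models of neurodevelopmental disorders was compared, as a pool, with wild type (WT) in cultured cortical astrocytes, the glial cells that clear glutamate and potassium and secrete factors acting on neurons. Per the labels, the models were of Fragile X syndrome (FXS, 6 libraries), Rett's syndrome (RTT, 6 libraries) and Down's syndrome (DS, 4 libraries), beside 6 WT libraries, which makes 22 of the 43 libraries of the series. The pooled value of a gene is the mean of the FXS, RTT and DS group means minus the WT mean, so that each model counts equally, on the scale log2(FPKM + 0.5). FPKM is the number of fragments per kilobase of transcript, scaled to the depth of the library. All 12349 autosomal genes with an FPKM of at least 1 in 4 or more libraries were tested, and 431 such genes of chromosomes X and Y were left out.

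Cells came from cortex at postnatal day 7, were captured by immunopanning (binding to antibody-coated dishes) and grew for 12 days without serum. The labels give neither allele, strain, sex nor the number of animals behind a culture, so genotype and any strain or sex difference between the groups cannot be told apart here, and they call the libraries biological replicates. A further 12 libraries of WT cultures, given the growth factor BMP6 over the last 5 days (n = 6) or left untreated (Alone, n = 6), were used as independent values.

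The disorders have different genetic origins: Fragile X syndrome comes from loss of the RNA-binding protein FMRP, and Down's syndrome from an extra copy of a set of genes. BMP6 belongs to the bone morphogenetic proteins, secreted ligands whose receptors activate SMAD transcription factors and, through them, genes such as Id3. In astrocytes, BMP signalling is known for promoting maturation and raising intermediate filament genes.

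Fmr1, the gene lost in Fragile X syndrome, was at 0.967 to 2.21 FPKM in FXS and at 12.0 to 17.1 in WT. The Y-linked gene Ddx3y was at 8.78 to 12.4 FPKM in every RTT library but ranged from 2.70 to 10.4 in WT, and Xist, which is expressed from the inactive X chromosome, was at most 0.012 in RTT and at 0.195 to 13.4 in WT. The estimated depth had a median of 18.2 M reads (M, mega) in WT, 44.6 in FXS, 36.0 in RTT and 31.03 in DS, and was read off the smallest FPKM steps. Astrocyte markers summed to 10226 to 15282 FPKM per library, against 27.4 to 91.2 for microglial, 103 to 171 for neuronal and 323 to 1326 for oligodendrocyte precursor markers. Mural and fibroblast markers summed to 942 to 3411 FPKM, with the highest sum in WT 33. Ciliated cell markers summed to 192 to 1828, highest in FXS 17, oligodendrocyte markers to 120 to 347 and endothelial markers to 62.9 to 263. DS 32 stood apart from the other 3 DS libraries, with a mean correlation of 0.950 with its group. The number of genes that passed without it is given below, but not its weight in the value of each gene.

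In the pool, 120 genes passed the threshold of an adjusted p under 0.05 (limma, Benjamini-Hochberg), or 0.972% of the genes tested. Of these, 68 rose (0.551%) and 52 fell (0.421%). The direction was shared by all 3 models for 106 of them, 55 that rose and 51 that fell. Over all genes tested, 17.3% were higher and 31.9% lower in all 3 models. The models share the 6 WT libraries, so a common direction is not independent evidence.

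Kank4, Dclk3, Serinc2 and Ephb6 showed the steadiest common change. They passed the threshold with the same sign in all 3 models, had an unadjusted p under 0.05 in each model, did not pass a test of difference among the models, and kept their call when each of the 22 libraries was left out in turn. No other gene of the 66 that passed with a common sign and without a called difference among models kept its call in all 22. Kank4 and Dclk3 rose and Serinc2 and Ephb6 fell.

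Kank4, of a family of ankyrin repeat proteins that regulate the actin cytoskeleton, lies at chr4:98754892-98818058 (GRCm38). Its FPKM was 5.99, 7.19 and 7.97 in WT (lowest, median, highest), 9.80, 13.3 and 14.0 in FXS, 8.11, 10.8 and 15.4 in RTT, and 17.3, 11.9, 8.51 and 15.1 in the DS libraries. All 16 model libraries lay above all 6 WT libraries. The pooled log2 difference was 0.70 (SE 0.13, adjusted p = 0.00802), with 0.75 in FXS, 0.56 in RTT and 0.80 in DS.

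Dclk3, a kinase of the doublecortin-like family, lies at chr9:111439081-111489611. Its FPKM was 1.37, 1.91 and 2.26 in WT, 2.36, 3.99 and 6.31 in FXS, 2.54, 3.32 and 4.82 in RTT, and 10.8, 3.89, 4.92 and 7.07 in DS, again without overlap between models and WT. The log2 rise was 1.03 (SE 0.18, adjusted p = 0.00676), by 0.83 in FXS, 0.76 in RTT and 1.502 in DS.

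Serinc2, a membrane protein of the serine incorporator family at chr4:130253495-130279218, fell. Its FPKM was 2.07, 4.03 and 5.63 in WT, 0.934, 1.79 and 2.93 in FXS, 1.09, 1.41 and 2.18 in RTT, and 0.780, 1.76, 1.43 and 0.993 in DS. The ranges overlapped, since the lowest WT library reached into the FXS and RTT values. The pooled log2 difference was -1.11 (SE 0.18, adjusted p = 0.00229), with -0.91 in FXS, -1.10 in RTT and -1.32 in DS.

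Ephb6, an Eph receptor that lacks kinase activity, lies at chr6:41603834-41620509. Its FPKM was 9.68, 11.8 and 12.5 in WT, 7.68, 8.21 and 8.94 in FXS, 7.55, 9.29 and 10.6 in RTT, and 5.47, 8.24, 7.61 and 6.66 in DS. FXS and DS lay wholly below WT, and RTT overlapped it. The pooled log2 difference was -0.49 (SE 0.08, adjusted p = 0.00159), the smallest adjusted p of the 66 genes, with -0.45 in FXS, -0.31 in RTT and -0.70 in DS.

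The calls of Kank4, Dclk3, Serinc2 and Ephb6 held with the estimated depth as a covariate (adjusted p = 0.0398, 0.0162, 0.0239 and 0.0313). They ended with the mean of the microglial markers as a covariate (0.108, 0.1003, 0.0846 and 0.0659). Over all alternative fits, these included, the log2 difference ran from 0.61 to 0.80 for Kank4 and from 0.80 to 1.29 for Dclk3. It ran from -1.30 to -0.81 for Serinc2 and from -0.57 to -0.38 for Ephb6. With only FXS and RTT in the mean the adjusted p of Kank4, Dclk3, Serinc2 and Ephb6 was 0.133, 0.173, 0.133 and 0.133. None of these calls held without DS in the mean, where 0.133 was the smallest adjusted p of all genes.

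**Figure D1:**
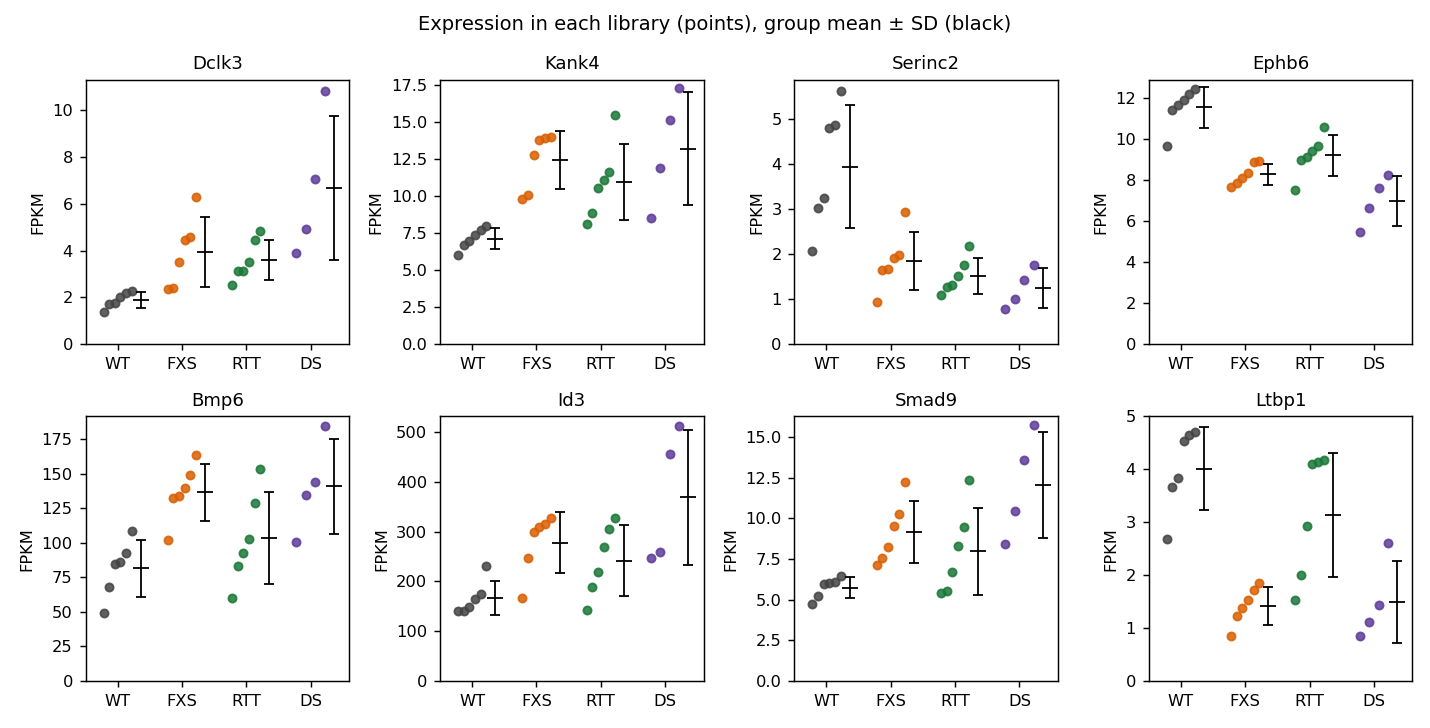
FPKM of 8 genes in each of the 22 libraries (points), by group, with the group mean ± SD in black; each y axis starts at 0. All 16 model libraries lie above the 6 WT libraries for Kank4 and Dclk3. RTT overlaps WT for Serinc2, Ephb6, Ltbp1, Id3, Smad9 and Bmp6, FXS for Serinc2, Id3 and Bmp6, and DS for Bmp6.

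The promoters of Kank4, Serinc2 and Ephb6 are shown because each gene kept its own direction of change in all 3 models. The directions differed, since Kank4 rose while Serinc2 and Ephb6 fell. No promoter was matched for Dclk3, which rose as well, so none is shown for it. The promoters of the BMP targets Smad9 and Id3 are shown because both genes rose here and rose with BMP6. The sequences run from 250 bases before to 50 after a transcript start that the RefSeq table gives for the gene (GRCm38.p6), 5′ to 3′ on the strand of the gene. That start lies inside the gene span of Kank4, Serinc2, Ephb6 and Smad9, which have longer transcripts, and for Serinc2 it is the first of 3 starts in the table. Capitals mark GGCGCC, a core of BMP response elements that reads the same on both strands.
Kank4, chr4:98817488-98817787, minus strand: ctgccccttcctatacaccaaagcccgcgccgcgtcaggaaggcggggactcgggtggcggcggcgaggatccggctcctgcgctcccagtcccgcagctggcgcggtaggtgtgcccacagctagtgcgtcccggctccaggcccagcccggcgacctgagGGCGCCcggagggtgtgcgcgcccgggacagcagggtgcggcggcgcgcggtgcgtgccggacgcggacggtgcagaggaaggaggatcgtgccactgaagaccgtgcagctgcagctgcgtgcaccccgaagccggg
Serinc2, chr4:130275537-130275836, minus strand: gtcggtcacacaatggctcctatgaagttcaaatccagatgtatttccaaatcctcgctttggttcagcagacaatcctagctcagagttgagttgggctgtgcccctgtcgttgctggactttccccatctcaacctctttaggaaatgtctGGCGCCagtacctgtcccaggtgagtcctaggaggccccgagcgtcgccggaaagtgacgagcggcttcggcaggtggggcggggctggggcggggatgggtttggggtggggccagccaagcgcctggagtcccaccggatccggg
Ephb6, chr6:41605261-41605560, plus strand: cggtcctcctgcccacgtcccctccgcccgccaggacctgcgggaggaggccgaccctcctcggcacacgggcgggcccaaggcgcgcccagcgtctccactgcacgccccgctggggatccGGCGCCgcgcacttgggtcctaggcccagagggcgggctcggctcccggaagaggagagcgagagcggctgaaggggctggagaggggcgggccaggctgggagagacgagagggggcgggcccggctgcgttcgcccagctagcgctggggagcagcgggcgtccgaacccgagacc
Smad9, chr3:54755332-54755631, plus strand: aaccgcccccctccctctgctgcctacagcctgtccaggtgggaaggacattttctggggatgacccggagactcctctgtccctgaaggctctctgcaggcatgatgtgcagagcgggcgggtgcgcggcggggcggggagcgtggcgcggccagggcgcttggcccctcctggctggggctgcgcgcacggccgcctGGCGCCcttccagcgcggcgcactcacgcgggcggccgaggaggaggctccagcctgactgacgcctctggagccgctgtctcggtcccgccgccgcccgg
Id3, chr4:136143572-136143871, plus strand: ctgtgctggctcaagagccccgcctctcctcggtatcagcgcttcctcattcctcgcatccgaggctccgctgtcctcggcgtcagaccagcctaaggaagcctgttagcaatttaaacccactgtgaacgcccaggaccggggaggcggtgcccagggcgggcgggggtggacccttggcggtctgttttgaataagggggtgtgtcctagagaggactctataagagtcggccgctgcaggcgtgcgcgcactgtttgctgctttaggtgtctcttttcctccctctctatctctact
GGCGCC stood once in the promoters of Kank4 (88 bases before that start), Serinc2 (97), Ephb6 (128) and Smad9 (51), and not in that of Id3. It was in 12.0% of all 27025 promoters of the table and in 22.9% of those of the genes tested, against 12 of 44 matched genes that rose with a common sign (27.3%) and 10 of 33 that fell (30.3%). A search of both strands found no match in the 5 promoters to the NF-Y box CCAAT, which 37.9% of all promoters held. The same was true of the E-box CACGTG, which 7.24% held.

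The 15 largest common rises with a mean of at least 2 FPKM in the models, unnamed transcripts left out, were of Dclk3 and 14 genes of varied function. Shh, the ligand Sonic hedgehog, was at 1.17, 2.33 and 5.06 FPKM in WT, 2.54, 5.47 and 7.92 in FXS, 2.44, 4.92 and 6.82 in RTT, and 11.3, 5.504, 5.58 and 5.34 in DS. All DS libraries were above WT, while FXS and RTT overlapped it, and the log2 rise of Shh was 1.06 (SE 0.25, adjusted p = 0.0414). Mme encodes neprilysin, a protease that degrades neuropeptides and amyloid peptide. It was at 5.23, 7.80 and 14.0 FPKM in WT, 10.6, 14.1 and 25.6 in FXS, 9.76, 13.6 and 19.6 in RTT, and 24.6, 11.9, 13.0 and 20.4 in DS, with overlap in every model. Mme rose by 0.88 (SE 0.19, adjusted p = 0.0284), and its log2 differences of 0.86, 0.76 and 1.03 in FXS, RTT and DS lay close together. Its call held with depth as a covariate.

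Abcc12, an ATP-binding cassette transporter, rose by 1.05 in the pool, with 1.24 in FXS, 0.72 in RTT and 1.19 in DS. Plcxd1, which has a phospholipase C domain, rose by 1.04, Aim1, a protein with crystallin domains, by 1.26, and Rab11fip1, an effector of Rab11 in membrane recycling, by 0.79. Entpd2, an ectonucleotidase that splits extracellular ATP, rose by 0.93 (adjusted p = 0.0491), with a call that held in 13 of 42 alternatives. Of its 50-base windows 29.9% occur in other genes, among them Npdc1. Mir7116 rose by 1.42, but its 70-base hairpin (chr11:100478411-100478480) lies within Acly, an enzyme of fatty acid synthesis whose own pooled difference was 0.10 (adjusted p = 0.548). Whether its reads came from Acly was not tested.

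Among the 15 largest rises 6 differed among the models by limma's F test. Of the 106 common genes, from which the 15 were drawn, 40 did (37.7%), and of all genes tested 299 (2.42%). Syt1, the calcium sensor of synaptic vesicles, was at 0.313 to 0.447 FPKM in WT, 0.424 to 0.764 in FXS, 0.458 to 0.722 in RTT, and 31.1, 3.59, 8.56 and 7.93 in DS. Its pooled rise of 1.36 held 3.49 in DS beside 0.25 and 0.34 in FXS and RTT, neither with an unadjusted p under 0.05. No library outside DS reached an FPKM of 1, so Syt1 passed the filter at that value only through DS. The direction of its pooled value was thus in part fixed by the filter. Cd59a, an inhibitor of complement, rose by 0.91 in the pool and by 2.05 in DS. P4ha3, a subunit of the collagen prolyl hydroxylase, rose by 0.86 and by 1.86 in DS, and Mal2, a protein of membrane trafficking, by 1.05 and 2.21. Aass, an enzyme of lysine breakdown, rose by 0.87, with 0.65, 0.42 and 1.55 in FXS, RTT and DS, each with an unadjusted p under 0.05. Pcp4, a small calmodulin-binding protein, rose by 1.23, with 0.69, 0.72 and 2.26, and 33.1% of its windows occur in other genes, among them Igsf5.

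The 15 largest falls were chosen the same way and held Serinc2. H19, an imprinted noncoding RNA of growing tissues, was at 3.35, 6.15 and 9.999 FPKM in WT, 1.11, 2.48 and 5.67 in FXS, 1.82, 3.77 and 5.85 in RTT, and 0.754, 2.68, 1.49 and 1.74 in DS. DS lay wholly below WT, and FXS and RTT overlapped it. H19 fell by 1.18 (SE 0.25, adjusted p = 0.0313). Gfra2, a receptor for neurturin, fell by 0.90, Unc5a, a netrin receptor, by 0.80, and Rrad, a Ras-related GTPase, by 0.74. Svop, related to a synaptic vesicle transporter, fell by 0.75 and Lmo1, a transcriptional regulator with LIM domains, by 0.74.

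Tfrc, the transferrin receptor that takes up iron, was the most abundant of the 15 largest falls. It was at 37.9, 43.4 and 64.1 FPKM in WT, 19.7, 32.3 and 42.5 in FXS, 26.8, 32.2 and 43.8 in RTT, and 16.1, 30.6, 25.2 and 24.9 in DS, below WT in all DS libraries and overlapping it in FXS and RTT. It fell by 0.69 (SE 0.15, adjusted p = 0.0344). Mir6947 fell by 1.05, and its 65-base hairpin lies within Actr8, a chromatin remodelling subunit whose pooled difference was 0.00.

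Ltbp1, which binds latent TGF-beta in the matrix, fell by 0.94 (SE 0.18, adjusted p = 0.0157) but differed among the models. It was at 2.68, 4.18 and 4.71 FPKM in WT, 0.851, 1.45 and 1.84 in FXS, 1.53, 3.51 and 4.17 in RTT, and 1.12, 2.61, 0.842 and 1.43 in DS. FXS and DS lay below all WT libraries, with a log2 difference of -1.23 in each, and RTT overlapped WT with -0.36 (unadjusted p = 0.12). Cthrc1, a secreted collagen-related protein, fell by 0.82, and Pmaip1, the proapoptotic protein Noxa, by 0.97, both mostly through DS with -1.45 and -2.02.

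Hmga1, a chromatin protein of proliferating cells, fell by 0.93, with -1.91 in DS, and 83.2% of its windows occur in other genes. Gnpda1, an enzyme of amino sugar metabolism, fell by 0.67, with -1.69 in DS beside -0.12 and -0.19 in FXS and RTT. Other genes hold 21.7% of its windows, among them Gm8615, which rose by 0.80 in the pool and by 2.60 in DS. How reads were divided between Gnpda1 and Gm8615 was not tested.

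**Figure D2:**
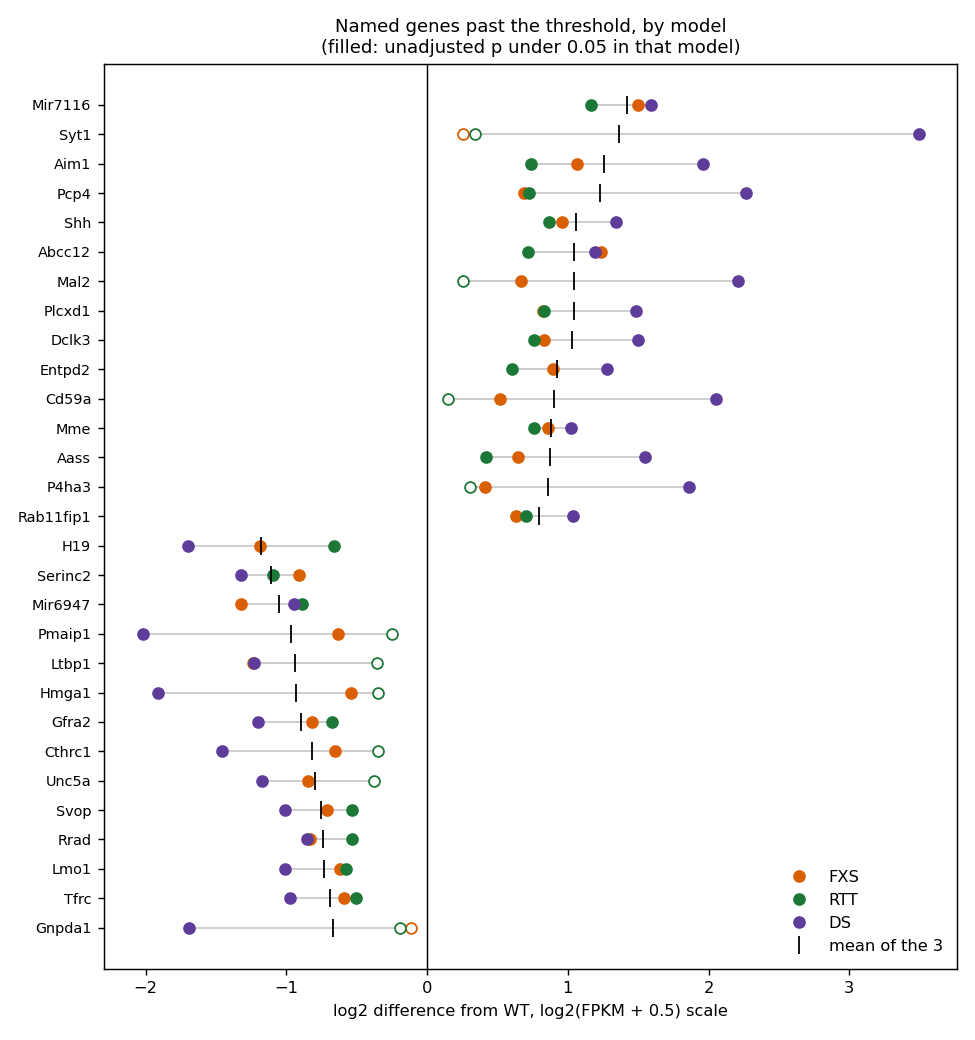
Log2 difference from WT (log2(FPKM + 0.5) scale) of the 15 largest rises and 14 of the 15 largest falls with a common sign, for FXS, RTT and DS (circles, filled where the unadjusted p was under 0.05) and their mean (bar). RTT circles lie nearest to 0 for most genes, and the DS circle of Syt1 stands at 3.49.

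The 3 models contributed unequally. DS had the largest difference in 104 of the 120 genes that passed and RTT the smallest in 82. Of the 120, 108 also passed in DS alone, where 556 genes did, while with limma no gene passed in FXS alone or in RTT alone. Among the 55 common rises the median log2 difference was 0.52 in FXS, 0.37 in RTT and 0.99 in DS, and among the 51 common falls it was -0.47, -0.31 and -0.95. The F test among models passed for 54 of the 120 genes.

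Another reading asks for an unadjusted p under 0.05 with a common sign in each model, whether or not the gene passed in the pool. This held for 248 genes (2.01%), 107 higher and 141 lower, and for 60 of the 120 genes that passed in the pool. Of these 60, 56 did not differ among the models by the F test, 32 that rose and 24 that fell. Only 4 genes of 12349 (0.0324%) had all 16 model libraries on one side of all 6 WT libraries. Kank4 and Dclk3 were among them, with Fbxw17, an F-box protein of ubiquitin ligases, at 3.22 to 4.24 FPKM in WT and 4.25 to 6.16 in the models. Fbxw17 rose by 0.39 (SE 0.08, adjusted p = 0.0157). Ubfd1, a ubiquitin family protein, lay below WT in all 16 but did not pass (log2 difference -0.24, SE 0.06, adjusted p = 0.0643).

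The 14 genes that passed without a common sign all had their largest difference in DS. Gbp2b, an interferon-inducible GTPase, was listed at 0 in all WT and FXS libraries and at 5.43, 6.44, 4.30 and 5.73 FPKM in DS. It passed the filter at an FPKM of 1 only through DS, so the filter fixed its direction in part. Wdfy1, an endosomal adaptor, was at 1.43 to 1.85 FPKM in WT and at 17.7, 17.9, 16.1 and 19.2 in DS. Hspa8, a constitutive chaperone, was at 115 to 142 FPKM in WT and at 9.72, 10.4, 28.9 and 11.9 in DS, and 73.2% of its windows occur in other genes. App, the amyloid precursor gene on chromosome 16, had a common sign and passed at 0.60, with 0.21, 0.33 and 1.28 in FXS, RTT and DS. Gm8615, Gbp2b, Wdfy1, Hspa8 and App were chosen after their values were seen.

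The BMP pathway was examined next, because the study treated WT cultures with BMP6. Bmp6 itself did not pass: it was at 49.1, 85.4 and 109 FPKM in WT, 102, 137 and 164 in FXS, 60.3, 97.6 and 153 in RTT, and 185, 100, 135 and 144 in DS. The groups overlapped in every model, and the pooled log2 difference was 0.63 (SE 0.17, adjusted p = 0.0776), with 0.77, 0.32 and 0.80 in FXS, RTT and DS. Of 21 tested BMP ligands, receptors and antagonists none passed with limma. At an unadjusted p under 0.05, 4 were higher and 2 lower (6.61% and 11.4% of all genes). The extracellular BMP regulator Bmper had a difference of -0.62 (adjusted p = 0.0534), the ligand Gdf11 one of 0.50 (0.127) and the ligand Bmp2 one of -0.74 (0.131). The median over the 21 genes was -0.04, against -0.03 over all genes tested.

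BMP targets were mostly higher. Of 19 tested, 14 had a positive pooled difference, 10 were higher and 4 lower in all 3 models, 9 were higher and 3 lower at an unadjusted p under 0.05 (6.61% and 11.4% of all genes), and 2 passed. The median was 0.28, with 0.27 in FXS, 0.08 in RTT and 0.34 in DS. Id3, an inhibitor of basic helix-loop-helix factors and an immediate BMP target, was at 140, 157 and 231 FPKM in WT, 166, 304 and 328 in FXS, 143, 244 and 327 in RTT, and 457, 248, 513 and 258 in DS. All DS libraries were above WT and the other models overlapped it. Id3 rose by 0.77 (SE 0.18, adjusted p = 0.0458).

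Smad9, a SMAD that BMP receptors activate, was at 4.70, 5.97 and 6.44 FPKM in WT, 7.13, 8.87 and 12.2 in FXS, 5.42, 7.4995 and 12.4 in RTT, and 15.7, 10.4, 8.43 and 13.6 in DS. FXS and DS lay wholly above WT and RTT overlapped it. Smad9 rose by 0.66 (SE 0.15, adjusted p = 0.0361). The call of Id3 held in 16 of 42 alternatives and that of Smad9 in 25. Ror2, a receptor kinase of the target list, had a difference of -0.47 (adjusted p = 0.121).

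The BMP6 libraries share no sample with the pooled comparison and give an independent reading of its genes. With BMP6, 631 of 11767 genes tested rose (5.36%) and 1155 fell (9.82%). Of the 55 common rises, 45 were tested there. There 9 rose and none fell by limma, with 32 of the 45 positive against 37.6% of all genes. Of the 51 common falls, 50 were tested: 2 rose and 4 fell, with 18 positive. With the culture as a block 1332 genes rose (11.3%) and 2847 fell (24.2%), and the same 45 genes held 18 that rose and 2 that fell, while the 50 held 8 and 12.

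The 9 genes that rose in both comparisons were Id3, Smad9, Pcp4, Aass, App, Me3, Slc25a21, Ezr and Frmd5. Id3 was at 65.3, 97.5 and 192 FPKM in Alone and at 485, 587 and 680 with BMP6, a log2 difference of 2.44 (SE 0.25, adjusted p = 0.000303). Smad9 went from 3.31, 4.54 and 8.498 to 15.4, 18.2 and 23.1, a difference of 1.74 (SE 0.19, adjusted p = 0.000431). Neither gene's ranges overlapped between Alone and BMP6, and both differences were larger than in the pooled models. Pcp4 had 3.48 with BMP6 and Aass 0.92. Of the common falls, Unc5a fell with BMP6 by 1.41 and Gfra2 by 0.89, while Ephb6 rose by 0.45. Kank4 did not pass there (0.52, adjusted p = 0.482, and 0.0982 with the culture as a block). Serinc2, at -0.65, did not pass without the block (adjusted p = 0.0656) and passed with it (0.0190), and Dclk3 was under the filter on low values.

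Alone libraries are WT cultures of other batches and were normalised in a separate table, so their levels are set beside the others as values only. The Alone median was nearer to the WT median than to that of the models in 45 of the 55 common rises and 36 of the 51 common falls, and in 46.1% of all genes tested. A gene also counts as nearer to WT where its Alone median lay beyond that of WT, away from the models. How many genes did so was not counted, so these shares do not show that Alone levels were like those of WT. Kank4 was at 1.26, 6.58 and 11.5 FPKM in Alone and Dclk3 at 0.11, 1.08 and 3.10. Both medians were nearer to WT and lay below it, at 7.19 and 1.91 FPKM in WT. Ephb6 was at 6.5, 8.89 and 11.6 and Serinc2 at 1.57, 2.23 and 5.13, both nearer to the models. The ranges of Kank4, Dclk3 and Ephb6 were wider in Alone than in WT.

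Among genes of secreted factors, Bdnf, a neurotrophin, fell and Slit2 and Nrg2 rose. Bdnf was at 4.13, 5.40 and 7.18 FPKM in WT, 2.21, 3.52 and 4.22 in FXS, 2.77, 4.38 and 5.42 in RTT, and 2.84, 3.59, 2.48 and 2.46 in DS. It lay below WT in all DS libraries and overlapped it in FXS and RTT, and fell by 0.58 (SE 0.14, adjusted p = 0.0472), a call that held in 13 of 42 alternatives. Slit2, a secreted ligand of Robo receptors that guides axons, was at 4.80, 6.12 and 7.62 FPKM in WT, 8.26, 11.9 and 16.1 in FXS, 5.43, 9.26 and 10.3 in RTT, and 16.8, 8.00, 7.46 and 10.7 in DS. Only FXS lay wholly above WT, and Slit2 rose by 0.67 (SE 0.16, adjusted p = 0.0440). Nrg2, a neuregulin that binds ErbB receptors, rose by 0.77 and Elovl2, an elongase of polyunsaturated fatty acids, fell by 0.64, with -0.79, -0.64 and -0.49 in FXS, RTT and DS. Slit2, Nrg2 and Elovl2 were named after their values were seen.

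Of 17 tested secreted regulators of synapses, Bdnf alone passed, and the median was -0.20. At an unadjusted p under 0.05, 1 was higher and 6 lower (6.61% and 11.4% of all genes). Tgfb1 had a difference of -0.51 (adjusted p = 0.0719), the thrombospondin Thbs1 one of 0.40 (0.146) and the pentraxin Ptx3 one of -0.36 (0.186). Among 15 genes of the IGF axis none passed with limma, and 2 were higher and 1 lower at an unadjusted p under 0.05. Igfbp2, a secreted binding protein of insulin-like growth factors, was at 1435, 1792 and 3464 FPKM in WT with a pooled difference of 0.10 (adjusted p = 0.803). Igfbp4 had -0.79 (0.127) and Igfbp5 0.76 (0.163). Smoc1, a secreted calcium-binding protein, was at 8.79, 17.7 and 26.1 FPKM in WT, 3.46, 10.7 and 24.1 in FXS, 7.61, 17.99 and 44.3 in RTT and 3.77, 14.6, 6.18 and 20.8 in DS, and its pooled difference of -0.42 did not pass (adjusted p = 0.586).

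Extracellular matrix genes had 4 higher and 12 lower of 43 at an unadjusted p under 0.05 (6.61% and 11.4% of all genes). Ltbp1 was the only member past the threshold, and the median was -0.07. The proteoglycan-degrading Adamts1 had 0.60 (adjusted p = 0.0569), the hyaluronan link protein Hapln1 -0.54 (0.0719) and the protease inhibitor Serpine2 -0.48 (0.113). Among 21 genes of glutamate and potassium handling none passed with limma, with 2 higher and 8 lower at an unadjusted p under 0.05 and a median of -0.24. The glutamate receptor gene Grm5 was at 5.71, 10.2 and 23.3 FPKM in WT, 0.945, 2.85 and 6.07 in FXS, 2.76, 8.67 and 17.7 in RTT, and 1.70, 5.17, 1.52 and 3.24 in DS. Its difference was -1.44 (adjusted p = 0.0569), and Gria1, an AMPA receptor subunit, had 1.12 (0.0638). Among 37 tested astrocyte markers none passed with limma. At an unadjusted p under 0.05, 8 were lower and none higher (11.4% and 6.61% of all genes). Of these markers 16 were lower and 4 higher in all 3 models (31.9% and 17.3% of all genes). The smallest p among them were of the amino acid transporter Slc7a10 (-0.64, adjusted p = 0.0674), the phagocytic bridge Mfge8 (-0.53, 0.105), the glypican Gpc5 (-0.79, 0.109) and the GABA transporter Slc6a11 (-0.65, 0.130).

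**Figure D3:**
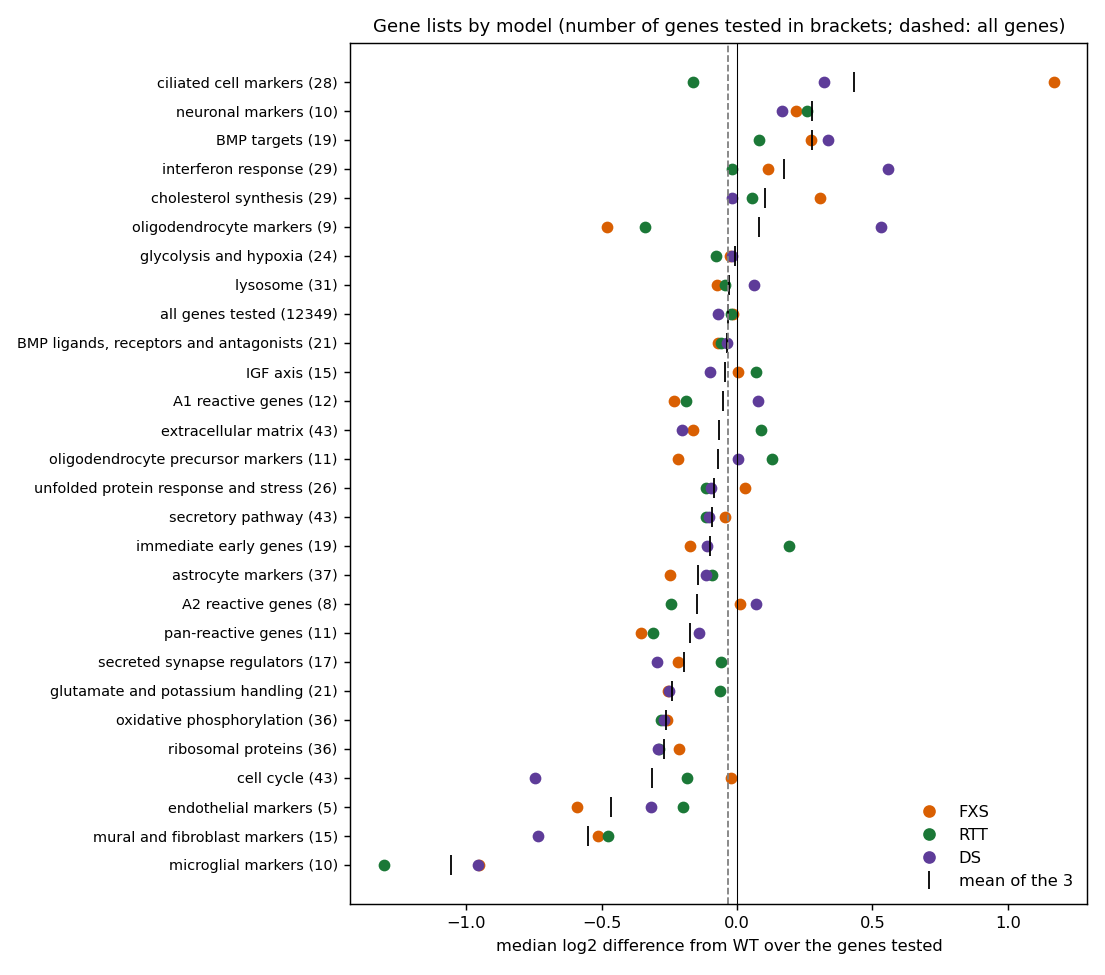
Median log2 difference from WT over the tested members of each gene list, for FXS, RTT and DS (circles) and the pool (bar), with the number of genes tested in brackets and the median of all genes as a dashed line. Oxidative phosphorylation and ribosomal protein lists lie at nearly equal values in the 3 models, and the ciliated cell list spreads from -0.16 in RTT to 1.17 in FXS.

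Genes of oxidative phosphorylation and of the ribosome were mostly lower by small amounts. Of 36 tested genes of oxidative phosphorylation, the mitochondrial pathway that makes ATP, 34 were lower in all 3 models and 29 were lower at an unadjusted p under 0.05, against 31.9% and 11.4% of all genes, while none of the list passed with limma. Their median was -0.26, with -0.26 in FXS, -0.28 in RTT and -0.27 in DS. Atp5b, a subunit of ATP synthase, was at 637, 711 and 824 FPKM in WT, 491, 597 and 701 in FXS, 501, 589 and 714 in RTT, and 475, 551, 692 and 462 in DS, with overlap in every model. Its difference was -0.34 (SE 0.09, adjusted p = 0.0937). Atp5a1 had -0.27 (0.121), Ndufa9, of complex I, -0.29 (0.124) and Cyc1, of complex III, -0.34 (0.130). Atp5g1, an ATP synthase subunit outside the list and chosen after its value was seen, fell by 0.59 (adjusted p = 0.0344), with -0.25, -0.51 and -1.02 in FXS, RTT and DS. Genes of glycolysis and hypoxia had 12 positive and 12 negative differences and a median of -0.01.

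Of 36 tested ribosomal protein genes, 33 were lower in all 3 models and 19 at an unadjusted p under 0.05 (31.9% and 11.4% of all genes). None of the list passed with limma, and the median was -0.27. This median was -0.24 under median-of-ratios scaling and -0.35 with depth as a covariate. With microglial markers as a covariate it was -0.06, and none of the 36 was lower at an unadjusted p under 0.05. Outside the list, and chosen after their values were seen, Rpl31 fell by 0.55 (adjusted p = 0.0475), and Fau, which encodes a ribosomal protein joined to a ubiquitin-like one, rose by 0.75 (0.0157), with 2.11 in DS. Fau passed the filter at an FPKM of 1 only through DS, so its direction was in part fixed by the filter. Other genes hold 32.9% of the windows of Rpl31 and 51.4% of those of Fau. In the list, Rpl26 had -0.54 (adjusted p = 0.0759), Rpl34 -0.59 (0.113) and Rps18 -1.53 (0.113), all largest in DS, and 71.3%, 50.6% and 86.7% of their windows occur in other genes. The genes are also short: over all genes tested the median difference was -0.086 for transcripts up to 1000 bases and -0.001 for those above 5000. The oxidative phosphorylation median stayed between -0.22 and -0.34 under median-of-ratios scaling, quantile normalization, depth as a covariate and without the 3 libraries WT 33, FXS 31 and DS 32. With microglial markers as a covariate it was -0.11 and 4 of the 36 genes were lower at an unadjusted p under 0.05. Summed per library, the 38 listed genes had 6472, 7102 and 8011 FPKM in WT, 4934, 5835 and 8078 in FXS, 5376, 5838 and 6560 in RTT, and 5080, 5696, 9275 and 5006 in DS. FXS 31 and DS 32 were above all WT libraries. The part of transcript length or library quality in these differences was not tested.

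Microglial markers were low in all groups and lowest in RTT. Of 18 listed, 10 passed the filter on low values and only 1 would have passed it on the 16 model libraries, so the direction of the tested members was in part fixed by the filter. None of the 10 passed with limma, and 9 had an unadjusted p under 0.05. Over all 18, with no filter, the median difference was -0.78, and -0.64 without WT 33, FXS 31 and DS 32, an alternative chosen after seeing the data. Fcrls was at 0.211, 1.30 and 5.63 FPKM in WT and at 0, 0.0945 and 0.374 in RTT, and its difference was -1.25 (adjusted p = 0.0803). Tyrobp (-1.27, 0.117), C1qa (-1.33, 0.120) and Cd68 (-0.85, 0.0967) followed, and the first 2 were listed at 0 in 1 or more model libraries. The 18 listed markers summed to 33.1, 48.2 and 91.2 FPKM in WT, with the highest value in WT 33, 28.3, 35.5 and 46.0 in FXS, 27.4, 33.97 and 37.9 in RTT, and 42.4, 38.9, 57.7 and 32.05 in DS, so every model overlapped WT. In bulk RNA, fewer cells of a type and less RNA per cell cannot be told apart.

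With the microglial mean as a covariate 31 genes passed, 25 of them among the 120, and 2 of the 66 common genes without a called difference among models kept their call, Svop and Lmo1. With depth as a covariate 31 genes passed, 28 of them among the 120, and 8 of the 66 kept it: Ephb6, Kank4, Dclk3, Serinc2, Fbxw17, Mme, St8sia5 and Fmo2. None of the 66 kept its call under each of these covariates, and 50 kept it with Ddx3y as a covariate. The parts of microglial RNA and of depth in the pooled differences were not tested further.

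Of the other cell lists, oligodendrocyte and oligodendrocyte precursor markers had no member past the threshold with limma and none at an unadjusted p under 0.05. All 15 tested mural and fibroblast markers had a negative difference, as had 7205 of all 12349 genes tested. Of the 15, 4 had an unadjusted p under 0.05, against 11.4% of all genes lower at that p, and the median was -0.55. Over all 19 listed the median was -0.46, and -0.22 without the 3 libraries. The matrix protein Mgp had -1.07 (adjusted p = 0.0654) and the pericyte gene Rgs5 -1.31 (0.135), and no member passed with limma. Of 43 cell cycle genes 40 had a negative difference and 19 an unadjusted p under 0.05, none passed with limma, and the median differed between models, with -0.02 in FXS, -0.19 in RTT and -0.75 in DS. The subunit Rrm1 of ribonucleotide reductase had -0.34 (adjusted p = 0.103), the cyclin Ccne2 -0.56 (0.117), the replication clamp Pcna -0.39 (0.129) and the helicase Mcm6 -0.35 (0.137). With the cell cycle mean as a covariate 99 genes passed, 63 of them among the 120.

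**Figure D4:**
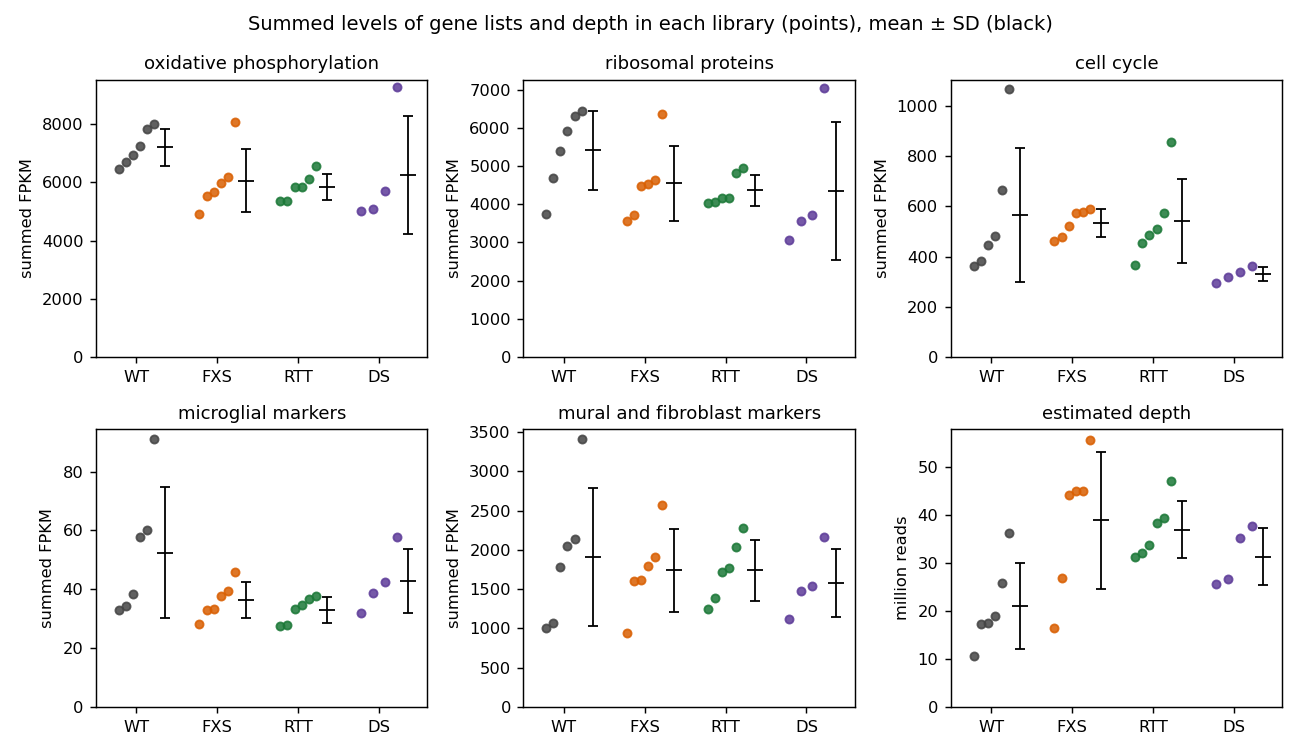
Summed FPKM of 5 gene lists and estimated depth in each library (points), by group, with mean ± SD in black and y axes from 0. WT holds the highest microglial sum (91.2) and the lowest depth (10.5 M reads), and DS 32 the highest oxidative phosphorylation sum (9275).

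How many genes passed varied with single libraries and with DS. Without DS 32 the number was 538 and without WT 33 it was 34, and without WT 33, FXS 31 and DS 32 together it was 817, 106 of them among the 120. With the 16 model libraries as a single group, in which DS counts by its 4 libraries, none passed with limma, 1863 had an unadjusted p under 0.05 and the smallest adjusted p was 0.0579, that of Serinc2. With FXS and RTT only in the mean none passed, 1835 had an unadjusted p under 0.05, and 83 of the 106 common genes were among these. With FXS and DS 359 passed, and with RTT and DS 133.

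**Figure D5:**
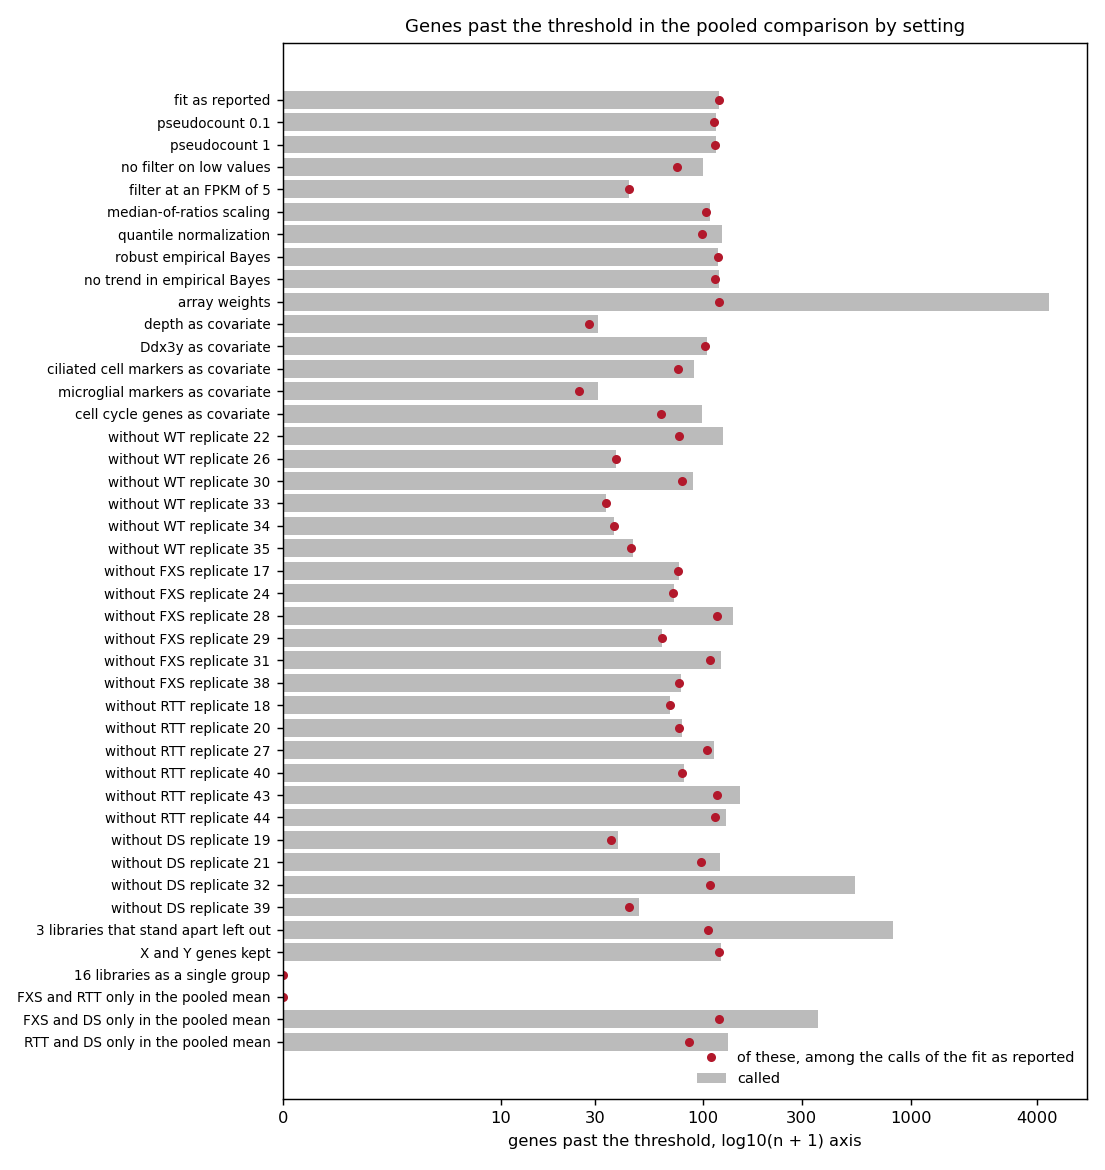
Genes past the threshold in the pooled comparison (grey bars, log10(n + 1) axis) under each setting, and how many of them were among the 120 of the fit as reported (red points). The bars run from 0 for FXS and RTT only to 4577 with array weights, and leaving out 1 library gives 34 to 538.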

How the data were processed

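RNA was measured in immunopanned mouse cortical astrocytes with a stranded poly(A) protocol and single-end reads of 50 bases, per the labels' protocols. Per the submitters' processing notes, the build was mm10 and the tools included the aligner STAR 2.5.3a, HOMER 4.10.4, DESeq2 1.14.1 and FastQC 0.11.8, but which tool made the values is not given in the sources used here. The authors deposited FPKM per gene, 1 table for the disorder models and WT and another for Alone and BMP6. These are not counts, so no count test was run.

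Values were taken as log2(FPKM + 0.5), which understates the fold change of low genes. Limma 3.58.1 in R 4.3.3 fitted 4 group means with a mean-dependent prior variance, and the contrast was the mean of the 3 models minus WT. P-values are two-sided and were adjusted by Benjamini-Hochberg over the 12349 genes. A moderated F test compared the models with each other. Depth was estimated from the steps between low FPKM values with a tolerance of 0.08 reads, since the total is not in the table. All 22 libraries carry 1 batch label, so the labels allow no comparison of batches among them. Replicate libraries had correlations of 0.942 to 0.991. P-values measure the spread between these libraries.

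Named genes are those of largest size that passed with a common sign and a mean of at least 2 FPKM on the higher side (15 in each direction), up to 4 members of smallest p from each list described, and Bmp6, Igfbp2 and Smoc1. A gene that the rule names and the check of the label of a model are not reported here. The comparison, its members and the gene lists were chosen with earlier results of these data known. BMP6 was compared with Alone without a block. The numbers pair those samples, because each pair shares a batch label and the deviations of the pairs from their group means had correlations of 0.408 to 0.776. Alternatives were other pseudocounts, filters, scalings, weights, covariates, and leaving out libraries or models.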

Additional observations from a re-analysis of the deposited data

Results flagged for a closer look

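Single libraries stood far from the rest of their group in 34 of 398 groups tested, where chance gives about 1 in 20. WT 22 held 8 of these values: Igfbp2 at 3464 FPKM, Plcxd1 at 4.55, Svop at 9.23, Lmo1 at 18.5, Ephb6 at 9.68, Ccne2 at 3.54, Adamts1 at 18.9 and Stat2 at 5.27. WT 33 held 5, with Actr8 at 15.49 FPKM, Rrad at 5.25, Ptx3 at 6.12, Fcrls at 5.63 and Hspa8 at 142.4. Frmd5 was at 3.06 in WT 26. In FXS the values were Gdf11 at 4.52, Ndufa9 at 102.7 and Rpl34 at 227.1 FPKM in FXS 31, Mme at 25.6, Gpc5 at 1.504, St8sia5 at 0.393 and Fmo2 at 2.29 in FXS 24, Hmga1 at 2.62 in FXS 28, Fcrls at 1.04 and Tyrobp at 1.77 in FXS 29, H19 at 5.67 in FXS 38 and Ezr at 125.1 in FXS 17. In DS they were Shh at 11.3 and Igfbp5 at 917.4 FPKM in DS 19, Rpl34 at 147.3, Hspa8 at 28.9 and Acly at 36.1 in DS 32, and Cd68 at 0.124 in DS 39. Atp5a1 was at 519.8 FPKM and Fau at 0.726 in RTT 43.

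The 3 models differed from each other by limma's F test for 26 named genes (Benjamini-Hochberg adjusted p over all genes). Among the rises the adjusted p was 4.89e-07 for Syt1, 0.0179 for Pcp4, 0.00189 for Mal2, 1.23e-05 for Cd59a, 0.0111 for Aass, 6.09e-06 for P4ha3, 0.000664 for Gad1, 7.37e-05 for Me3, 0.0390 for Slc25a21, 4.53e-07 for Fau and 0.00200 for App. Among the falls it was 0.00223 for Pmaip1, 0.0422 for Ltbp1, 0.000114 for Hmga1, 0.0408 for Cthrc1, 0.0387 for Atp5g1 and 1.31e-09 for Gnpda1. For genes that did not pass in the pool it was 0.0161 for Rpl26, 0.0136 for Rpl34, 0.0387 for Gpc5, 0.0458 for Adamts1 and 0.00173 for Rps18. It was 1.95e-15 for Gbp2b, 9.28e-13 for Wdfy1, 1.33e-12 for Gm8615 and 7.02e-11 for Hspa8, which passed in the pool without a common sign.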

How the results depend on the processing

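The 120 genes past the threshold, and the 106 with a common sign, numbered 44 and 38 with a filter at 5 FPKM, 4577 and 4399 with array weights, 31 and 21 with depth as a covariate, 31 and 20 with microglial markers as a covariate, and 817 and 806 without WT 33, FXS 31 and DS 32. They numbered 0 and 0 both with 16 libraries as a single group and with FXS and RTT only (limma; 1863 and 1835 genes at an unadjusted p under 0.05), and 359 and 338 with FXS and DS only. Leaving out 1 library gave 34 to 538 and 19 to 529, lowest without WT 33 and highest without DS 32. The 248 genes with an unadjusted p under 0.05 in each model became 1691 with array weights, 109 with Ddx3y and 142 with microglial markers as a covariate, 680 without the 3 libraries, and 142 to 468 without 1 library. The 299 genes that differed among models became 184 with the filter at 5 FPKM, 2076 with array weights, 170 with Ddx3y and 119 with cell cycle genes as a covariate, and 199 to 915 without 1 library. Why these counts moved was not tested. With the culture number as a block, which pairs the libraries, 4179 genes passed with BMP6 against 1786 without it, and leaving out 1 culture without the block gave 369 to 1699. Igfbp2 turned from 0.10 to -0.085 with microglial markers as a covariate and Acly from 0.10 to -0.041 with it, and Hspa8 from -1.03 to 0.0086 and Gm8615 from 0.80 to -0.094 with FXS and RTT only. Actr8, at 0.0043, was at -0.053 with FXS and DS only, -0.00032 with RTT and DS only, and -0.019 to 0.068 without 1 library; the cause was not tested. The pooled count stayed within 1.5 times under pseudocounts of 0.1 and 1 (116 each), median-of-ratios scaling (109), quantile normalization and no filter (101). Depth was lowest in WT, so differences in genes of low FPKM rest on fewer reads there.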

Other observations

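Interferon response genes were mostly higher. Of 29 tested, 25 had a positive pooled difference, but none passed with limma. Of the 29, 14 were higher in all 3 models and 7 at an unadjusted p under 0.05, against 17.3% and 6.61% of all genes. The median was 0.17, with 0.11 in FXS, -0.02 in RTT and 0.56 in DS. Stat2, a transcription factor of the interferon response, had 0.44 (adjusted p = 0.0924), and Ifit3, which binds viral RNA, had 0.75 (0.129). Other genes hold 51.2% of the windows of Ifit3, among them Ifit3b. Of 29 genes of cholesterol synthesis 25 had a positive difference, 3 at an unadjusted p under 0.05, with a median of 0.10 and 0.30, 0.06 and -0.02 in FXS, RTT and DS, and none passed with limma. The enzyme Hmgcs1 and the desaturase Fads1 had 0.27 each (adjusted p = 0.192 and 0.188).

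All 28 tested markers of ciliated cells had a positive pooled difference, as had 5144 of all 12349 genes tested. Of the 28, 6 were higher in all 3 models and 2 at an unadjusted p under 0.05 (17.3% and 6.61% of all genes). None of the markers passed with limma. Their median was 1.17 in FXS, -0.16 in RTT and 0.32 in DS. Of 10 neuronal markers 2 passed, Syt1 and Gad1, which makes GABA. Syt1 was tested only because of its level in DS, as given above. Gad1 rose by 0.71 (adjusted p = 0.0403), with 0.18, 0.34 and 1.60 in FXS, RTT and DS. The secretory pathway had 34 of 43 genes with a negative difference (7205 of 12349 over all genes) and a median of -0.09. Of the 43, 7 were lower at an unadjusted p under 0.05, against 11.4% of all genes. Ssr1, of the translocon-associated complex, had -0.25 (adjusted p = 0.0910), and none passed with limma. Chromosome 17 held 13 of the 120 genes that passed, 8 of the 106 common genes and 623 of the 12349 tested. Of the 54 genes that passed and differed among the models, 10 lay on it.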
